A study of Mus musculus with 12 samples.

Results

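Fatty acid oxidation is the stepwise breakdown of fatty acids to acetyl-CoA, and 38 mouse genes of it were followed here: 22 of the mitochondrial route, 11 of the peroxisomal route, 2 whose enzymes work in either compartment and 3 regulators. They were taken by name as the activating enzymes, carnitine shuttle, oxidation enzymes and regulators, and each name was matched to its Entrez gene. All 38 had a row in the count table, which holds 13124 genes. Their lowest level in any kidney was 20.6 CPM (counts divided by the TMM-scaled library total, in the usual CPM unit), from a count of 335, so that none was present only because of the groups in which it was high.

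RNA was sequenced from 12 saline-perfused whole kidneys of male C57BL/6 mice, 3 in each of 4 groups, 24 h after surgery. Kidneys 1 to 3 had sham surgery with no antibody. The other 9 came from mice that were given a monoclonal antibody and 24 h later underwent unilateral warm ischaemia-reperfusion injury (IRI), a clamp on the blood flow to 1 kidney that is afterwards released. Kidneys 4 to 6 had an isotype control antibody (label Iso), kidneys 7 to 9 an antibody against the receptor of granulocyte colony-stimulating factor (anti-G-CSFR, label VR81) and kidneys 10 to 12 an antibody against complement protein C5 (anti-C5, label BB5.1). The isotype and sham groups differ both in IRI and in antibody injection, which cannot be told apart, and whether the kidney collected was the operated one is left unsaid in the labels. They do not name the mouse of each kidney, so p-values measure the spread between these 12 kidneys. Each library held 13200930 to 16324215 counts.

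Fatty acids are first joined to coenzyme A, and long chains cross into mitochondria as carnitine esters, a step that Cpt1a, carnitine palmitoyltransferase, starts. In the matrix a spiral of dehydrogenation, hydration, a second dehydrogenation and thiolysis then shortens the chain, and the electrons pass to the respiratory chain through the electron transfer flavoprotein. Peroxisomes run a like series of reactions on very long, branched and dicarboxylic chains. The proximal tubule of the kidney relies on fatty acids as its main fuel, and the nuclear receptors PPAR alpha and ERR alpha, with the coactivator PGC-1 alpha, are known regulators of these genes.

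Per kilobase of exon, the highest sham levels among the 38 were 882 CPM per kb for Slc27a2, a very-long-chain acyl-CoA synthetase and transporter, 601 for Ehhadh, the peroxisomal bifunctional enzyme, 565 for Acsm2, a medium-chain acyl-CoA synthetase, and 463 for Acadm, the medium-chain acyl-CoA dehydrogenase. The lowest was 14.9 CPM per kb for Ppargc1a, which encodes PGC-1 alpha. The length used joins all annotated exons of a gene, so the order depends on the annotation. By CPM alone Acsm2 was the highest, with a sham mean of 4192 against 3312 for Slc27a2. Enzymes of both compartments were thus among the most abundant members in the sham kidney.

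In the isotype kidneys 36 of the 38 genes were lower than in sham, 1 was higher (Acsl5) and 1 was not called (Cpt1a). A gene was called where edgeR's quasi-likelihood test gave a Benjamini-Hochberg adjusted p under 0.05 over all 13124 genes, and a gene is said to have risen or fallen only where it was called. Over all genes 30.7% were called lower and 32.1% higher in this comparison. A fall of more than 2-fold was seen in 27 of the 38 genes, against 14.2% of all genes. The median log2 change was -1.31 for the 38 genes and 0.03 for all genes. The peroxisomal genes fell in 11 of 11 cases with a median log2 change of -1.50, and the mitochondrial genes in 20 of 22 with a median of -1.19, a difference between the classes that is given without a test.

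**Figure D1:**
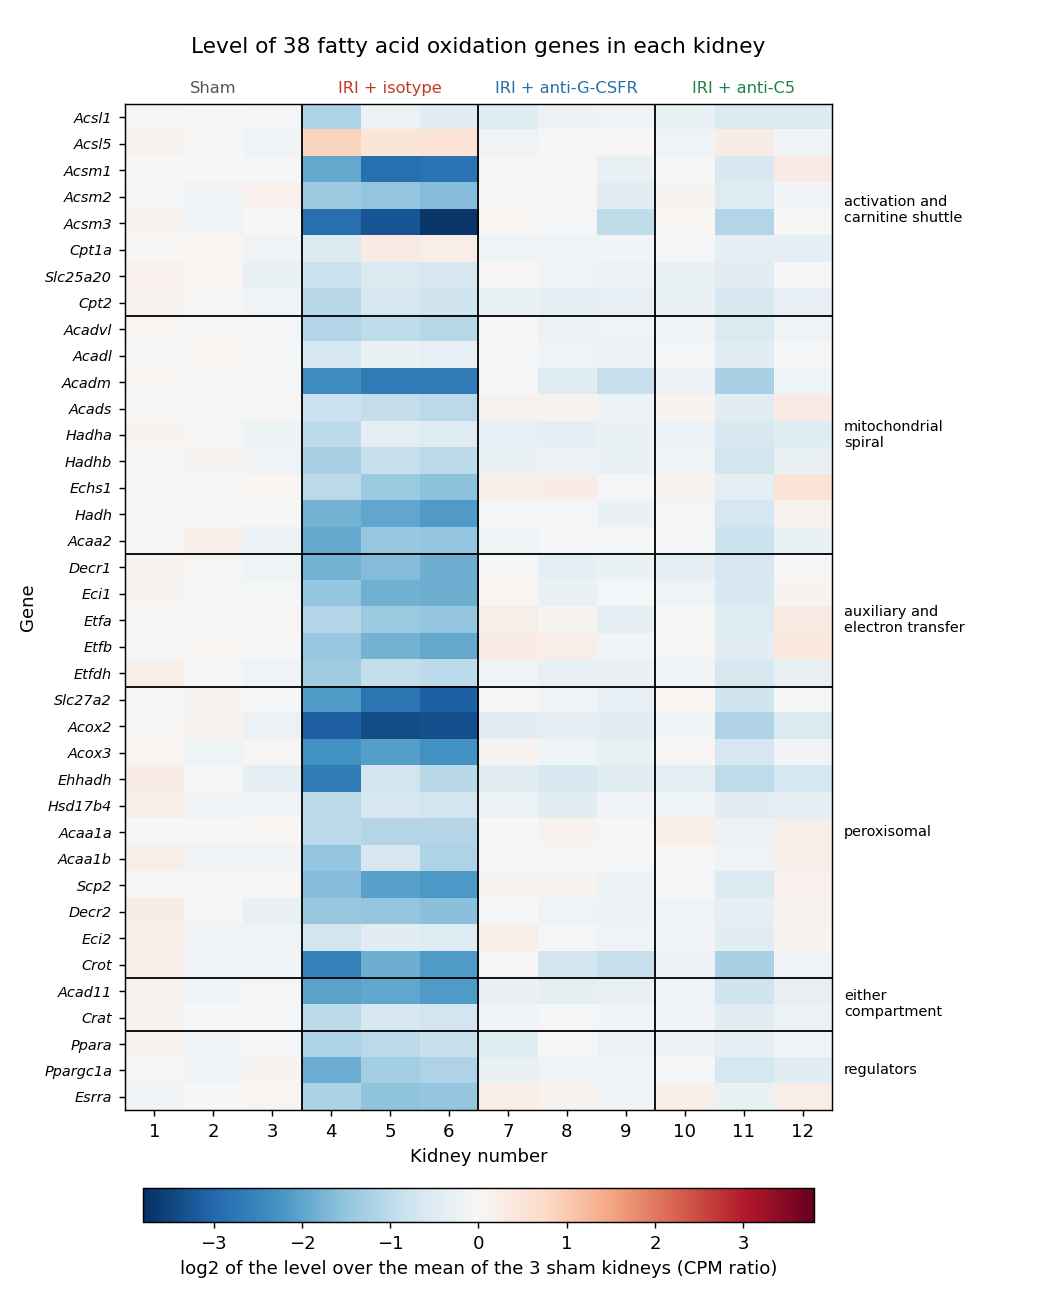
Level of each of the 38 genes (rows, grouped by role) in each of the 12 kidneys (columns), as the log2 ratio of its CPM to the mean of the 3 sham kidneys, blue for lower and red for higher. The 3 isotype kidneys (4 to 6) are blue in nearly every row except Acsl5 and Cpt1a, and kidney 11 is the bluest column among the kidneys given an active antibody.

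Libraries did not sit equally close within groups. The median of the 38 genes, each as a percent of its sham mean, was 104.6%, 99.1% and 95.1% in kidneys 1 to 3, and 38.8%, 38.9% and 40.3% in kidneys 4 to 6. Kidneys 7, 8 and 9 stood at 98.7%, 91.9% and 86.0%, and kidneys 10, 11 and 12 at 92.9%, 69.1% and 93.3%. Kidney 11 was the lowest of its group in 35 of 38 genes, with 28 genes under 75% of the sham mean, and kidney 9 was the lowest in 19 of 38. These 2 kidneys also had the highest Havcr1 (a tubule injury marker) of their groups, with 345 CPM in kidney 9 and 1507 CPM in kidney 11, against 3.08 to 14.3 CPM in sham and 3032 to 5672 CPM in isotype kidneys. Counts and medians that rest on the antibody groups are therefore also given without kidneys 9 and 11. These 2 had the lowest medians of the 38 genes in their groups, so leaving them out pulls the antibody medians upward by that choice alone. The values without them are no independent check.

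The first step, activation and carriage into the mitochondrion, was the most mixed. Of its 8 genes, 6 fell in the isotype kidneys, with a median log2 change of -0.73. Acsm3 (Entrez 20216, GRCm38 chromosome 7, 119760923 to 119787513), a medium-chain acyl-CoA synthetase, had 1489, 1282 and 1364 CPM in the sham kidneys and 189, 141 and 106 CPM in the isotype kidneys. It reached 1442, 1329 and 709 CPM with anti-G-CSFR and 1458, 643 and 1366 CPM with anti-C5. The isotype kidneys lay far below every other kidney, and kidneys 9 and 11 lay between them and the rest. The log2 change against sham was -3.24 (SE 0.36, adjusted p = 1.91e-05 in edgeR), the largest fall of this class. In the GENCODE annotation 39.8% of the exon bases of Acsm3 also lie in exons of Eri2 on the opposite strand, and the strand setting used in counting is not given in the sources used here.

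Acsl5 (Entrez 433256, chromosome 19, 55251938 to 55297720), a long-chain acyl-CoA synthetase, went the other way. Its levels were 168, 152 and 141 CPM in sham, 274, 212 and 221 CPM in isotype, 139, 146 and 159.8 CPM in anti-G-CSFR and 140.5, 187 and 143 CPM in anti-C5 kidneys. All 3 isotype kidneys were above the other 9, and Acsl5 rose by 0.62 on the log2 scale (SE 0.14, adjusted p = 0.00213 in edgeR). Acsl1, another long-chain synthetase, fell in the same kidneys, with 367, 356 and 338 CPM in sham and 156, 303 and 261 CPM in isotype kidneys, a log2 change of -0.56 with an adjusted p of 0.0274. Its call was lost without kidney 1 (adjusted p = 0.0687) or kidney 2 (adjusted p = 0.0623).

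Cpt1a (Entrez 12894, chromosome 19, 3322334 to 3385733), the malonyl-CoA-sensitive gate of mitochondrial import, did not pass the test. It had 581, 586 and 506 CPM in sham and 389, 692 and 659.6 CPM in isotype kidneys, where kidney 4 was below every sham kidney and kidneys 5 and 6 above. The log2 difference was 0.06, with a 95% confidence interval of -0.35 to 0.47. Cpt1a had 498, 513 and 518 CPM with anti-G-CSFR and 545, 444 and 443 CPM with anti-C5. The inner-membrane partners of the shuttle, the carrier Slc25a20 and the transferase Cpt2, both fell, to 63.3% and 57.3% of the sham level in the fit.

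All 9 genes of the mitochondrial spiral fell, with a median log2 change of -1.05. Acadm (Entrez 11364, chromosome 3, 153922357 to 153944632) fell most. The sham kidneys had 1921, 1795 and 1725 CPM and the isotype kidneys 351, 284 and 279 CPM, a log2 change of -2.57 (SE 0.29, adjusted p = 2.14e-05 in edgeR). The anti-G-CSFR kidneys had 1787, 1329.7 and 987 CPM and the anti-C5 kidneys 1560.3, 765 and 1635 CPM. No kidney of these groups came down to the isotype range, although kidney 11 had 42.2% of the sham mean and kidney 9 54.5%.

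Acadl (Entrez 11363, chromosome 1, 66830839 to 66863277), the long-chain acyl-CoA dehydrogenase, changed least of the 9. It had 558, 586 and 533 CPM in sham, 371, 468 and 448 CPM in isotype, 539, 513 and 482 CPM in anti-G-CSFR and 543, 411 and 532 CPM in anti-C5 kidneys. The sham and isotype kidneys did not overlap, and the fall of 0.38 on the log2 scale (SE 0.13) had an adjusted p of 0.0266 in edgeR. That call was lost without kidney 1 (adjusted p = 0.0581), kidney 2 (0.0818) or kidney 4 (0.0834). The acyl-CoA dehydrogenases thus spanned from 16.8% of the sham level for Acadm through 48.3% for Acadvl and 52.9% for Acads to 76.7% for Acadl. For Acadvl 42.9% of the exon bases overlap Dvl2 on the opposite strand.

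Hadha and Hadhb encode the alpha and beta subunits of the mitochondrial trifunctional protein, which runs the later steps of the spiral on long chains, and were singled out after their values were seen because they are neighbours read in opposite directions. The 85 bases between their outermost GENCODE ends are shown because they part the pair. The stretch lies at chr5:30155163-30155247 on GRCm38.p6 (plus strand, sequence from RefSeq, 69.4% G or C), with Hadha read to the left and Hadhb to the right. RefSeq places both starts outside it, that of Hadha at 30154980 and that of Hadhb at 30155253:
Hadha-Hadhb: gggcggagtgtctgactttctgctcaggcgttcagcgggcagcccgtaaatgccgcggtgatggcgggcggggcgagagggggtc
Hadha had 403, 386 and 326 CPM in sham and 187, 289 and 264 CPM in isotype kidneys, and fell by 0.59 on the log2 scale (SE 0.16, adjusted p = 0.00716 in edgeR). Hadhb had 413, 436 and 376 CPM in sham and 174, 224 and 203 CPM in isotype kidneys, and fell by 1.03 (SE 0.15, adjusted p = 0.000103). Both fell, kidney 4 being the lowest for each, and the difference between the 2 falls was not tested. Of the 100-base windows of Hadhb, 14.8% also occur in the pseudogenes Gm13910 and Gm9108, so its count is less certain. The other 3 genes of the spiral fell to 25.7% of the sham level for Hadh, the short-chain hydroxyacyl-CoA dehydrogenase, 33.2% for the thiolase Acaa2 and 40.4% for the hydratase Echs1.

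The auxiliary enzymes for unsaturated chains and the electron transfer genes fell in 5 of 5 cases, with a median log2 change of -1.71. Decr1 (Entrez 67460, chromosome 4, 15917240 to 15945507), the mitochondrial 2,4-dienoyl-CoA reductase, had 625, 598 and 515 CPM in sham, 166, 184 and 159.9 CPM in isotype, 583, 459 and 487 CPM in anti-G-CSFR and 459.6, 373 and 571 CPM in anti-C5 kidneys. The isotype kidneys were close to each other and far below the other 9, with a log2 change of -1.77 (SE 0.16, adjusted p = 7.57e-06 in edgeR). Etfdh (Entrez 66841, chromosome 3, 79603788 to 79629500), the dehydrogenase that hands the electrons to ubiquinone, fell least of the 5. It had 393, 322 and 301 CPM in sham, 133, 182 and 169 CPM in isotype, 312, 277 and 287 CPM in anti-G-CSFR and 314, 221 and 278 CPM in anti-C5 kidneys. Its log2 change was -1.07 (SE 0.16, adjusted p = 0.000151). The flavoprotein subunits Etfa and Etfb stood at 40.2% and 30.6% of the sham level, and 35.8% of the 100-base windows of Etfb also occur in Gm45233, a gene that overlaps it.

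The peroxisomal genes fell without exception, and 9 of 11 by more than 2-fold. Acox2 (Entrez 93732, chromosome 14, 8225511 to 8259353), the acyl-CoA oxidase for branched chains and bile acid precursors, had the largest fall of all 38 genes. It had 223, 237 and 186 CPM in sham and 24.7, 20.6 and 21.5 CPM in isotype kidneys, a log2 change of -3.27 (SE 0.22, adjusted p = 1.84e-06 in edgeR). With anti-G-CSFR it had 162, 169 and 162 CPM and with anti-C5 200.2, 98.4 and 147 CPM. The anti-G-CSFR kidneys lay all below the sham kidneys and all far above the isotype kidneys.

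Eci2 (Entrez 23986, chromosome 13, 34977748 to 35027096), a peroxisomal enoyl-CoA isomerase, fell least of the peroxisomal genes. Its levels were 213, 171 and 166 CPM in sham, 113, 135 and 130.2 CPM in isotype, 212, 177 and 168 CPM in anti-G-CSFR and 169, 135 and 196 CPM in anti-C5 kidneys, a log2 change against sham of -0.54 (SE 0.15, adjusted p = 0.00892 in edgeR). Slc27a2 fell to 16.3% of the sham level, Acox3, another acyl-CoA oxidase, to 21.4%, Crot, the transferase that makes carnitine esters for export from the peroxisome, to 22.3%, and the thiolase Scp2 to 26.0%. Of the windows of Scp2, 21.8% also occur in the pseudogene Scp2-ps2. The thiolases Acaa1a and Acaa1b fell to 47.6% and 48.2%, and their separate values are uncertain because 7.21% of the 100-base windows of the first and 19.3% of the second are shared between them.

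**Figure D2:**
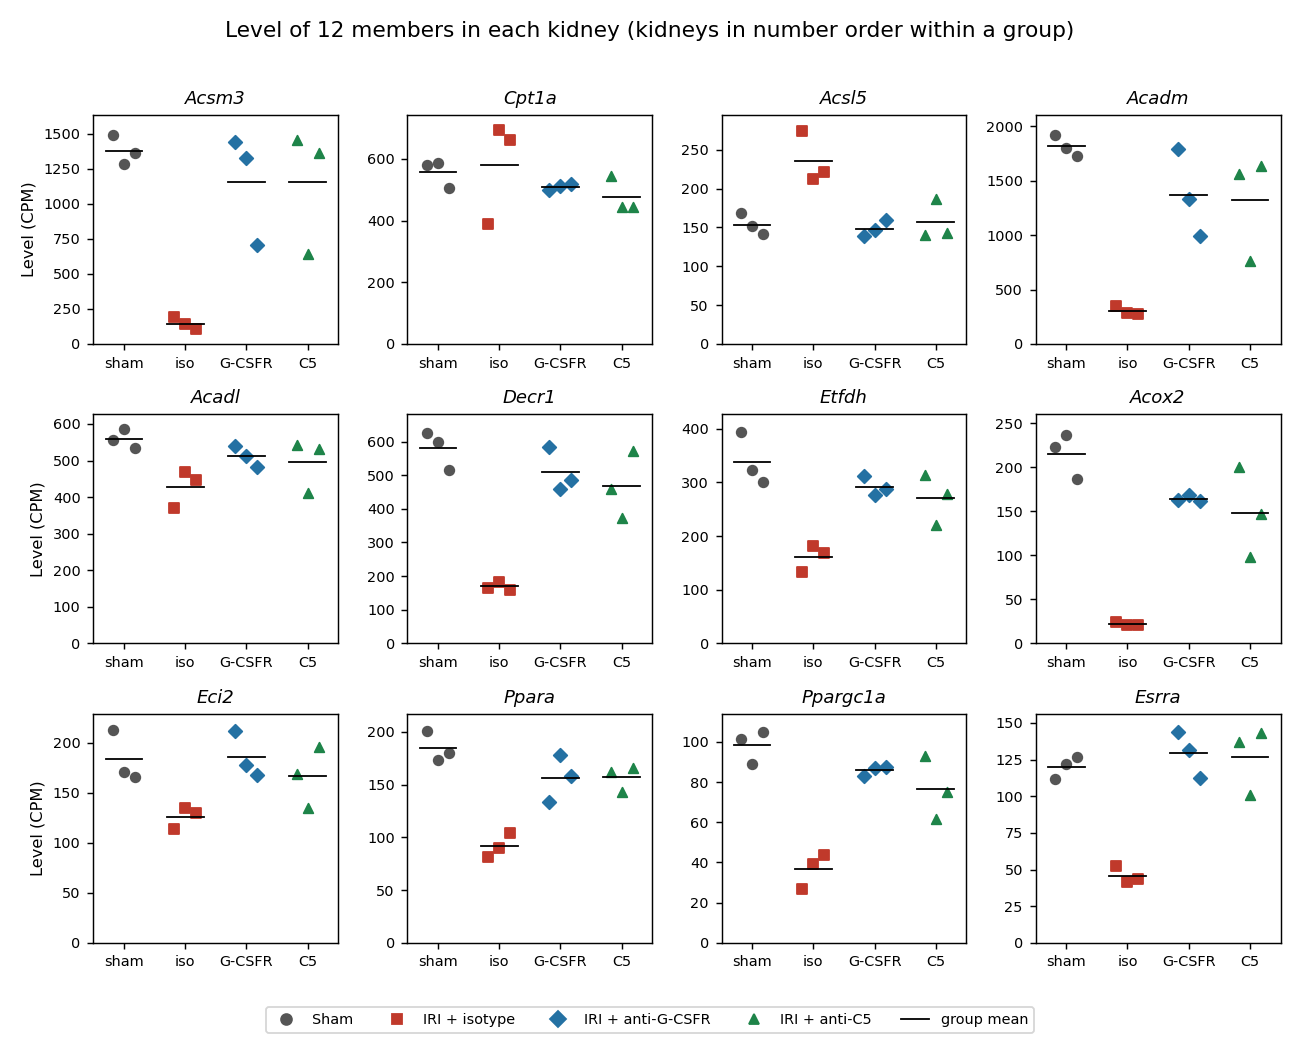
CPM of 12 genes in each kidney (points, in kidney order within a group) with the group mean (line), on axes that start at 0. Isotype kidneys lie below all others for Acsm3, Acadm, Decr1 and Acox2 and above all others for Acsl5, while the Cpt1a points of the isotype group fall on both sides of the sham points.

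Ehhadh, taken up after its values were seen, had the widest spread within the isotype group. Its levels were 2158, 1789.6 and 1428 CPM in sham, 280.2, 1109.7 and 855 CPM in isotype, 1363, 1191 and 1364 CPM in anti-G-CSFR and 1412, 909 and 1135 CPM in anti-C5 kidneys. Kidney 4 had 15.6% of the sham mean, kidney 5 61.9% and kidney 6 47.7%. The log2 change against sham was -1.26 with an SE of 0.38 and an adjusted p of 0.0121 in edgeR.

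Acad11 (Entrez 102632, chromosome 9, 104063377 to 104127725), an acyl-CoA dehydrogenase for long chains, and Crat (Entrez 12908, chromosome 2, 30400471 to 30415813), carnitine acetyltransferase, are found in either compartment, and both fell. Acad11 had 448, 378 and 382 CPM in sham, 97.4, 102 and 90.7 CPM in isotype, 336, 312 and 330.0 CPM in anti-G-CSFR and 360.3, 237 and 324 CPM in anti-C5 kidneys. Every kidney given an active antibody was above the isotype kidneys and below the sham kidneys, and the log2 change of isotype against sham was -2.06 (SE 0.15, adjusted p = 2.61e-06 in edgeR). Crat had 240.0, 222 and 214 CPM in sham, 111, 148 and 136 CPM in isotype, 205, 218 and 211 CPM in anti-G-CSFR and 208, 171 and 193 CPM in anti-C5 kidneys, with a log2 change of -0.78 (SE 0.12, adjusted p = 0.000156).

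The 3 regulators fell in the isotype kidneys, each by more than 2-fold. Ppara (Entrez 19013, chromosome 15, 85734983 to 85802819), which encodes PPAR alpha, had 201, 173 and 179.5 CPM in sham, 81.3, 90.1 and 104 CPM in isotype, 134, 178 and 158 CPM in anti-G-CSFR and 162, 143 and 165 CPM in anti-C5 kidneys. Its log2 change was -1.01 (SE 0.13, adjusted p = 4.95e-05 in edgeR). Ppargc1a (Entrez 19017, chromosome 5, 51454250 to 51567726) had 101, 88.8 and 105 CPM in sham, 26.8, 39.3 and 43.9 CPM in isotype, 83.1, 87.0 and 87.5 CPM in anti-G-CSFR and 93.0, 61.7 and 74.8 CPM in anti-C5 kidneys. Kidney 4 was again the lowest, and the log2 change was -1.42 (SE 0.18, adjusted p = 4.44e-05). Esrra (Entrez 26379, chromosome 19, 6910977 to 6921813), which encodes ERR alpha, had 112, 122 and 127 CPM in sham and 52.3, 41.8 and 43.5 CPM in isotype kidneys, a log2 change of -1.39 (SE 0.15, adjusted p = 1.45e-05). It had 144, 132 and 112 CPM with anti-G-CSFR and 137, 101 and 143 CPM with anti-C5, spread around the sham values.

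The 250 bases before the start of each gene were searched on both strands for binding motifs of PPAR alpha and ERR alpha. Sequences came from the RefSeq promoter table (GRCm38.p6), which matched 34 of the 38 genes. Whether these regulators had a part in the changes of the enzyme genes was not tested. PPAR alpha binds, with its partner RXR, a direct repeat of AGGTCA spaced by 1 base, and a match with at most 2 of 12 letters different was found for 2 of 34 genes (5.88%), against 3.72% of all genes in that table and 3.23% of the genes counted here. The motif of ERR alpha, TNAAGGTCA with no mismatch, was found for 0 of 34, against 1.30% of all genes and 0.87% of those counted; a site for ERR alpha also holds an AGGTCA, so that the motifs overlap in letters. The 2 matches are shown with their surroundings, the matched letters in capitals, 5′ to 3′ on the strand of the gene. That of Echs1, the enoyl-CoA hydratase of the spiral, begins 83 bases before the start (chr7:140116439-140116558, minus strand), and that of Etfa 77 bases before it (chr9:55512255-55512374, minus strand), where it reads on the other strand:
Echs1: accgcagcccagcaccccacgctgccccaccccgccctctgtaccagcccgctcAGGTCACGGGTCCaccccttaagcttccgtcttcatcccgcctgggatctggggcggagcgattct
Etfa: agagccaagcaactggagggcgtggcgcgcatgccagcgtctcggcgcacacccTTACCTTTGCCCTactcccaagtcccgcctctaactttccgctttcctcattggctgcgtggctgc
Each differs from the repeat at 2 letters. Both genes fell in the isotype kidneys, Echs1 to 40.4% and Etfa to 40.2% of the sham level, near the middle of the 38 genes. A match of letters is a description, and its absence says only that the letters are not in this window.

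With anti-G-CSFR, 32 of the 38 genes were higher than in the isotype kidneys, 1 was lower (Acsl5) and 5 were not called (Acsl1, Cpt1a, Acadl, Hadha and Ehhadh). Over all genes 31.5% were called higher and 32.0% lower. A difference of more than 2-fold upward was seen in 22 of the 38 genes, against 14.9% of all genes, and the median log2 difference was 1.28 for the 38 genes and -0.02 for all. Among the mitochondrial genes 17 of 22 were higher (median log2 difference 1.14), and among the peroxisomal genes 10 of 11 (median 1.41). The largest differences were those of Acsm3 (log2 2.99, SE 0.35, adjusted p = 3.51e-05 in edgeR) and Acox2 (log2 2.88, SE 0.22, adjusted p = 4.1e-06). Acsl5 was lower by 0.67 on the log2 scale (adjusted p = 0.00134). Without kidneys 9 and 11, 33 genes were higher and 1 lower, with 18 of 22 mitochondrial and 10 of 11 peroxisomal genes higher (medians 1.29 and 1.48). Over all genes 32.4% were then called higher and 31.3% lower.

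With anti-C5, again 32 genes were higher than in the isotype kidneys, 1 was lower (Acsl5, log2 difference -0.59, adjusted p = 0.00328 in edgeR) and the same 5 were not called. Over all genes 30.5% were called higher and 29.8% lower. Here 22 of the 38 genes were more than 2-fold higher, against 13.9% of all genes, with a median log2 difference of 1.20 (all genes -0.01). The mitochondrial genes were higher in 17 of 22 cases (median 1.10) and the peroxisomal genes in 10 of 11 (median 1.38). Acsm3 (log2 2.99, SE 0.35, adjusted p = 4.44e-05) and Acox2 (log2 2.74, SE 0.21, adjusted p = 6.43e-06) led here too. Without kidneys 9 and 11, 33 genes were higher and 1 lower, with the same 2 counts for the mitochondrial and peroxisomal genes (medians 1.30 and 1.505). Over all genes 31.6% were then called higher and 30.5% lower. Acadl was the gene added in each comparison. The 3 comparisons above share the isotype kidneys, so that a low or high isotype value enters each of them.

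The regulators were higher than in the isotype kidneys in both antibody groups. Against isotype, Ppara was higher by 0.77 on the log2 scale with either antibody (adjusted p = 0.000312 and 0.000371 in edgeR), Ppargc1a by 1.23 and 1.06 (0.000128 and 0.000393) and Esrra by 1.49 and 1.47 (1.36e-05 and 1.95e-05), anti-G-CSFR first. All 3 were also called with both antibodies without kidneys 9 and 11, a choice that favours this (median log2 differences 1.24 and 1.21). Decr1 was higher by 1.59 and 1.46, Etfdh by 0.86 and 0.75, Acad11 by 1.75 and 1.67 and Crat by 0.69 and 0.53, all called. Eci2 was higher by 0.56 with anti-G-CSFR (adjusted p = 0.00733) and by 0.40 with anti-C5 (adjusted p = 0.0384). The anti-C5 call for Eci2 was lost on leaving out 1 kidney of 4, 5, 6, 8, 10 or 12, with adjusted p values from 0.0501 to 0.164.

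**Figure D3:**
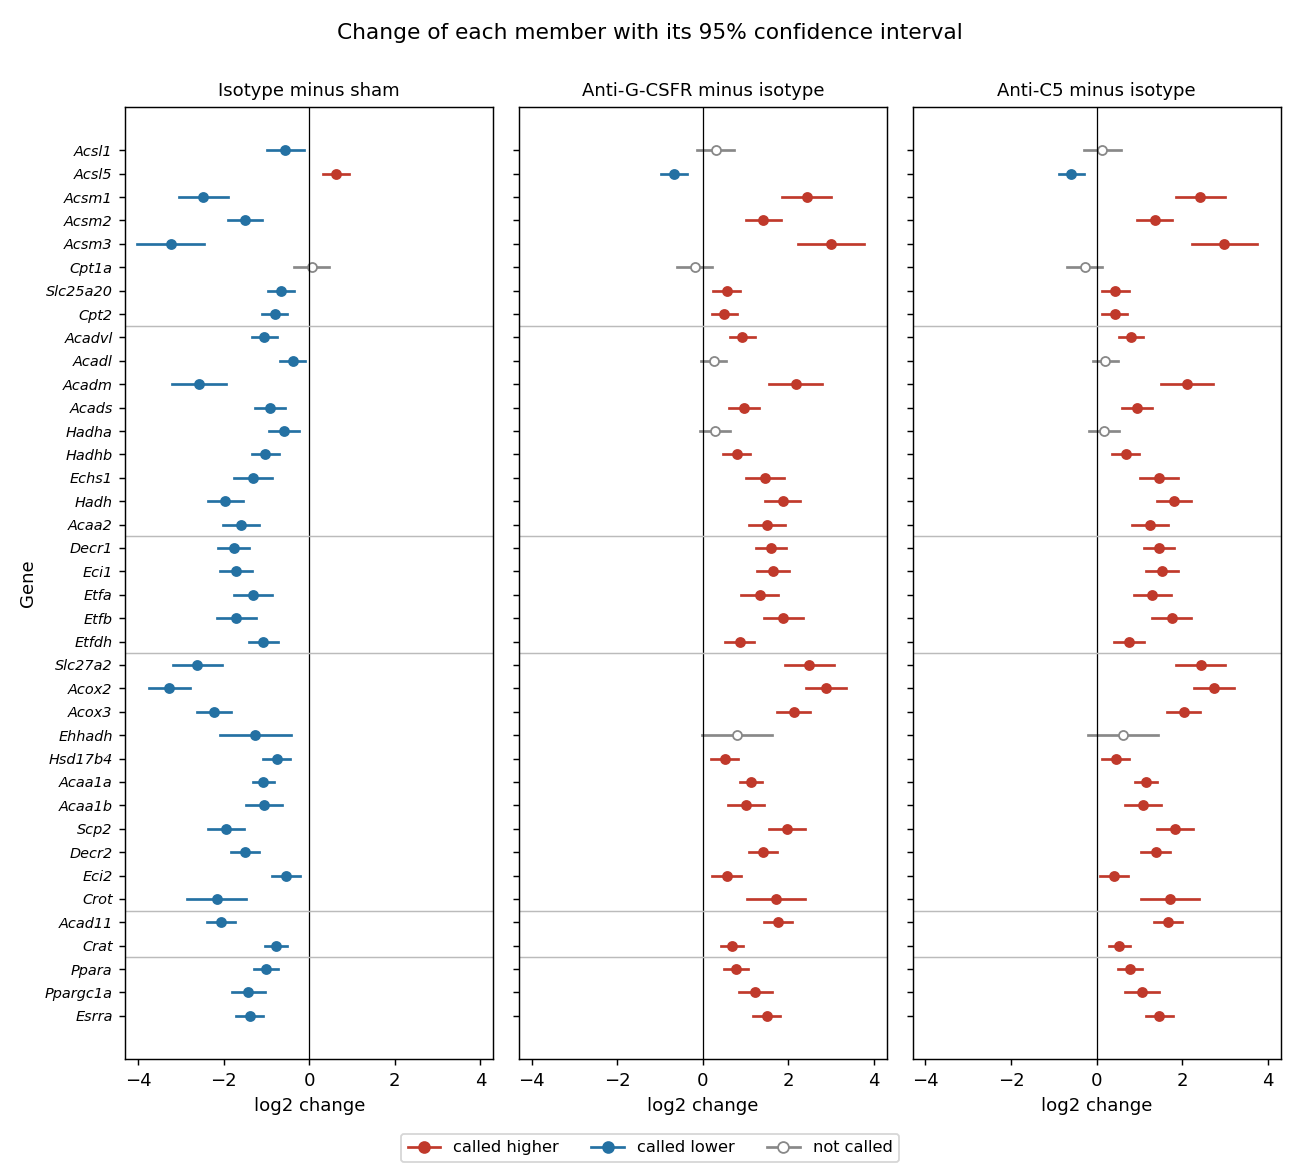
Log2 change of each of the 38 genes (points) with its 95% confidence interval (bars) in the 3 comparisons that involve the isotype group, filled where called and open where not. Most genes are lower in isotype than in sham kidneys and higher with either antibody than with isotype, and Acsl5 runs opposite in all 3 panels.

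The 5 genes not called against isotype had these differences. Acsl1 differed by 0.30 with anti-G-CSFR (95% confidence interval -0.13 to 0.73) and by 0.13 with anti-C5 (-0.30 to 0.56). Hadha differed by 0.28 (-0.07 to 0.63) and 0.17 (-0.18 to 0.52), and Acadl by 0.25 (-0.04 to 0.55) and 0.21 (-0.09 to 0.50). Hadhb, the partner of Hadha in the trifunctional protein, was called in both comparisons with differences of 0.79 and 0.68. Ehhadh differed by 0.80 (-0.01 to 1.62) and 0.62 (-0.19 to 1.44) in edgeR. With anti-G-CSFR it was called higher on all kidneys by DESeq2 (adjusted p = 0.0383) and limma-voom (adjusted p = 0.0428), and without kidney 5 it was called with both antibodies in edgeR, with log2 differences of 1.20 and 1.02. Cpt1a differed by -0.19 (-0.60 to 0.22) and -0.28 (-0.69 to 0.13) and was called lower with either antibody once kidney 4 was left out, with log2 differences of -0.41 (adjusted p = 0.0144) and -0.50 (adjusted p = 0.00498).

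Between the antibodies none of the 38 genes was called, and none had an unadjusted p under 0.05 in edgeR. Over all genes 0% were called, 207 had an unadjusted p under 0.05, and DESeq2 called 2 and limma-voom 0. The log2 differences of the 38 genes, anti-G-CSFR minus anti-C5, ran from -0.08 to 0.26. Their 95% confidence intervals were narrowest for Acaa1a (-0.29 to 0.21) and widest for Ehhadh (-0.63 to 0.99). Each interval holds the differences compatible with these kidneys, 3 a group, and is not adjusted for the number of genes. The smallest difference that could be detected was not computed. Without kidneys 9 and 11 the median log2 difference was -0.01 in place of 0.08, with 0% of all genes and no member called.

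Against sham, no gene of the 38 was called in either antibody group, with 0% of all genes called in each of the 2 comparisons, also when kidneys 9 and 11 were left out. The log2 differences ran from -0.46 to 0.17 with anti-G-CSFR and from -0.64 to 0.14 with anti-C5, with medians of -0.12 and -0.22. At an unadjusted p under 0.05 there were 778 genes of the table in the first comparison, 1 of them a member (Cpt2), and 1487 in the second, 5 of them members (Cpt2, Hadha, Hadhb, Acox2 and Acad11). DESeq2 called 1 gene higher in the first, and 70 higher and 42 lower in the second, limma-voom called 0 in both, and no alternative called a member. Cpt2, the second transferase of the shuttle, had 80.9% of the sham level with anti-G-CSFR and 76.7% with anti-C5, with no overlap between the kidneys. In these 2 comparisons the groups overlapped in 30 and 26 of the 38 genes, and in 10713 and 10768 of all 13124. Without kidneys 9 and 11 the medians were -0.07 and -0.11.

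**Figure D4:**
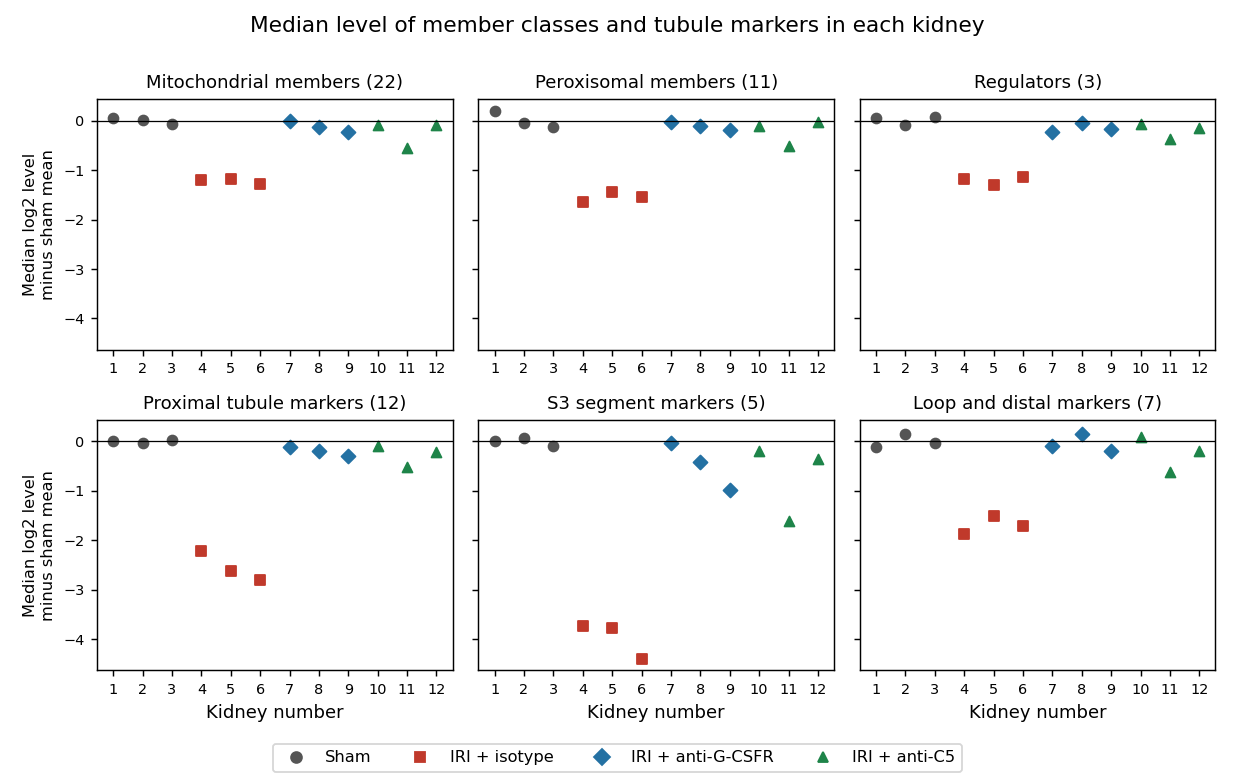
Median over each set of genes of the log2 level in a kidney minus the sham mean, for the mitochondrial, peroxisomal and regulator genes (top) and for marker genes of the proximal tubule, its S3 segment and the loop of Henle and distal tubule (bottom), by kidney number. In each panel the isotype kidneys lie lowest, and kidney 11 lies lowest among the kidneys given an active antibody.

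Markers of the cells that rely on this pathway moved with it. All 12 proximal tubule markers fell in the isotype kidneys (median log2 change -2.42), and their summed level was 14980.4 to 16424 CPM in sham, 2492 to 3683 in isotype, 13112 to 14355 in anti-G-CSFR and 10485 to 14981 in anti-C5 kidneys. All 5 markers of the S3 segment, its last part, fell (median -3.97), from 1783 to 1901 CPM in sham down to 97.4 to 135 CPM in isotype kidneys. They had 905 to 2002 CPM with anti-G-CSFR and 586 to 1785 CPM with anti-C5, the lowest of each being kidneys 9 and 11. The loop and distal tubule markers fell in 6 of 7 cases (median -1.36). The 1 not called was Umod, with means of 5098 CPM in sham and 4214 CPM in isotype kidneys. Slc12a1 of the same list, which fell, had means of 1569 and 101 CPM. All 6 markers of injured tubule rose (median 5.92) and all 6 neutrophil markers rose (median 3.12). In whole-kidney RNA fewer tubule cells and less RNA per cell cannot be told apart, and the part of these markers in the changes of the 38 genes was not tested.

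Markers of other tissues rich in this pathway were looked up as well. The 4 measured adipocyte markers summed to 29.9 to 55.8 CPM in sham, 4.48 to 48.8 in isotype, 0.46 to 94.1 in anti-G-CSFR and 0.28 to 4.64 in anti-C5 kidneys, and none was called in isotype against sham. Ucp1, the brown fat uncoupling protein, was at 0 in kidneys 7, 10 and 11 and at 0.77 CPM in kidney 12. The medians of the 38 genes, in percent of sham, were 38.8%, 38.9% and 40.3% in kidneys 4 to 6. They were 98.7%, 91.9% and 86.0% in kidneys 7 to 9 and 92.9%, 69.1% and 93.3% in kidneys 10 to 12. The part of fat tissue in these levels was not tested. Lep, Retn, the skeletal muscle markers, 4 of 5 adrenal cortex markers and 1 of 4 hepatocyte markers were not analysed here. Star, the other adrenal marker, was at 0.48 to 6.78 CPM over the 12 kidneys and rose in the isotype kidneys. The 3 measured hepatocyte markers fell with the 38 genes in the isotype kidneys, Alb standing at 3.87 to 11.6 CPM in all 12. Ttr had 93.8 to 130 CPM in sham, 23.6 to 42.9 in isotype, 79.2 to 118 in anti-G-CSFR and 113 to 189 in anti-C5 kidneys. Serpina1a had 28.7 to 60.2, 4.98 to 10.6, 26.3 to 59.3 and 21.3 to 64.9 CPM in the same order.

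Other genes around the pathway were taken as lists, each with its counts and median in isotype against sham beside 30.7% of all genes lower and 32.1% higher. Carnitine supply fell in 3 of 3 measured genes (median log2 change -1.86). Aldh9a1, an enzyme of carnitine synthesis, had 719, 713 and 779 CPM in sham, 214, 206 and 189 CPM in isotype, 717, 664 and 576 CPM in anti-G-CSFR and 649.9, 459 and 721 CPM in anti-C5 kidneys. Fatty acid uptake and binding was mixed, with 5 lower and 3 higher of 9 (median -0.59): Fabp3, a fatty acid binding protein, went from 51.8 to 70.5 CPM in sham to 7.13 to 11.5 CPM in isotype kidneys, and Acbd3, of the acyl-CoA binding domain family, from 39.3 to 44.2 CPM up to 54.9 to 68.1 CPM. Of the 5 genes that set malonyl-CoA, the inhibitor of Cpt1a, 3 were lower and 1 higher (median -0.58). Acacb, the acetyl-CoA carboxylase that makes malonyl-CoA at the mitochondrion, fell by 1.56 on the log2 scale, and Prkaa1, a catalytic subunit of the AMP-activated kinase, rose by 0.69.

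Beyond the oxidation enzymes, peroxisomal genes were lower too. Other enzymes found in peroxisomes (Phyh, Hacl1, Amacr, Pecr, Ech1, Acot3, Acot4, Acot8 and Cat) fell in 9 of 9 genes (median log2 change -1.53). Pecr, the trans-2-enoyl-CoA reductase, fell by 3.56 on the log2 scale. Peroxisome assembly and import fell in 13 of 18 with none higher and a smaller median of -0.57. Ketone body enzymes fell in 6 of 6 (median -2.02), with Bdh1, the hydroxybutyrate dehydrogenase, at 149, 138 and 145 CPM in sham and 28.6, 24.3 and 23.3 CPM in isotype kidneys. Other acyl-CoA dehydrogenases (Acadsb, Acad8, Ivd, Gcdh, Acad9, Acad10 and Acad12) fell in 7 of 7 (median -1.53). Acad12 had the smallest p of them with a log2 change of -2.61.

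Nuclear receptors and coactivators other than the 3 above were lower in 7 and higher in 3 of 12 (median log2 change -0.44). Esrrg, which encodes ERR gamma, fell by 1.49 on the log2 scale, and Ppard, which encodes PPAR delta, rose by 0.60. Fatty acid synthesis showed no common direction, with 4 lower and 3 higher of 11 (median -0.20): Me1, malic enzyme, fell by 1.33 and Acly, ATP citrate lyase, rose by 0.62. Lipid droplet and lipolysis genes were lower in 5 and higher in 5 of 13 (median -0.16). Hilpda, a hypoxia-inducible lipid droplet protein, rose from 1.51 to 1.88 CPM in sham to 7.83 to 9.03 CPM in isotype kidneys, and Dgat2, which makes triglyceride, fell from 208 to 253 CPM to 65.6 to 87.8 CPM.

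The same lists were called mostly in the opposite direction when either antibody was compared with isotype, and none of their genes was called between the antibodies or against sham. With anti-G-CSFR and with anti-C5 alike, carnitine supply was higher in 3 of 3 genes and the other peroxisomal enzymes in 9 of 9. So were the ketone body enzymes in 6 of 6, the other acyl-CoA dehydrogenases in 7 of 7 and peroxisome assembly in 14 of 18. These lists therefore had no gene called lower with either antibody, where over all genes 31.5% were called higher and 32.0% lower with anti-G-CSFR and 30.5% and 29.8% with anti-C5. Uptake and binding genes were higher in 5 and lower in 2 of 9 with anti-G-CSFR, and higher in 6 and lower in 3 with anti-C5. For nuclear receptors the counts were 6 higher and 3 lower of 12, then 6 and 2, and for the malonyl-CoA genes 3 higher and 1 lower of 5, then 2 and 1. Fatty acid synthesis genes were 4 higher and 3 lower of 11, then 2 and 3, and lipid droplet genes 4 higher and 3 lower of 13, then 4 and 5. Several of these counts, as in fatty acid synthesis and lipid droplets, lie near the shares over all genes. Without kidneys 9 and 11 the counts higher and lower were the same with both antibodies in 6 of these 10 lists. The others moved by 1 gene in a comparison: uptake and binding was higher in 6 with anti-G-CSFR, the malonyl-CoA genes in 3 with anti-C5, fatty acid synthesis in 3 and 1 with the antibodies in turn, and lipid droplet genes were lower in 4 with anti-G-CSFR. No gene of these lists was then called between the antibodies or against sham. The shares over all genes without these 2 kidneys are those given above.

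Of the other known targets of PPAR alpha, 6 of 12 measured genes were lower and 4 higher in the isotype kidneys (median log2 change -0.61). Over all genes 30.7% were called lower and 32.1% higher, so the count of higher targets lies near the share over all genes. Plin2, the coat protein of lipid droplets, had 258, 170.2 and 147 CPM in sham, 1774, 3429.6 and 2451 CPM in isotype, 168, 152 and 232 CPM in anti-G-CSFR and 154, 414 and 158 CPM in anti-C5 kidneys. It rose by 3.73 on the log2 scale (SE 0.43, adjusted p = 2.41e-05 in edgeR). Cyp4a31, a fatty acid omega-hydroxylase, had the smallest p among those that fell, with 1294, 994 and 897 CPM in sham and 130.4, 153 and 126 CPM in isotype kidneys, a log2 change of -2.96 (SE 0.21, adjusted p = 2.03e-06). With anti-G-CSFR and anti-C5 in turn, Plin2 was lower than in the isotype kidneys with log2 differences of -3.79 and -3.40, and Cyp4a31 higher by 2.45 and 2.22, all called. Of the 12 targets, 6 were higher and 3 lower with anti-G-CSFR, and 5 higher and 3 lower with anti-C5, against the shares over all genes given above for the other lists. Without kidneys 9 and 11 the counts were 6 and 3 with either antibody, and Plin2 and Cyp4a31 were called with log2 differences of -3.97 and 2.51 with anti-G-CSFR and -4.01 and 2.40 with anti-C5.

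**Figure D5:**
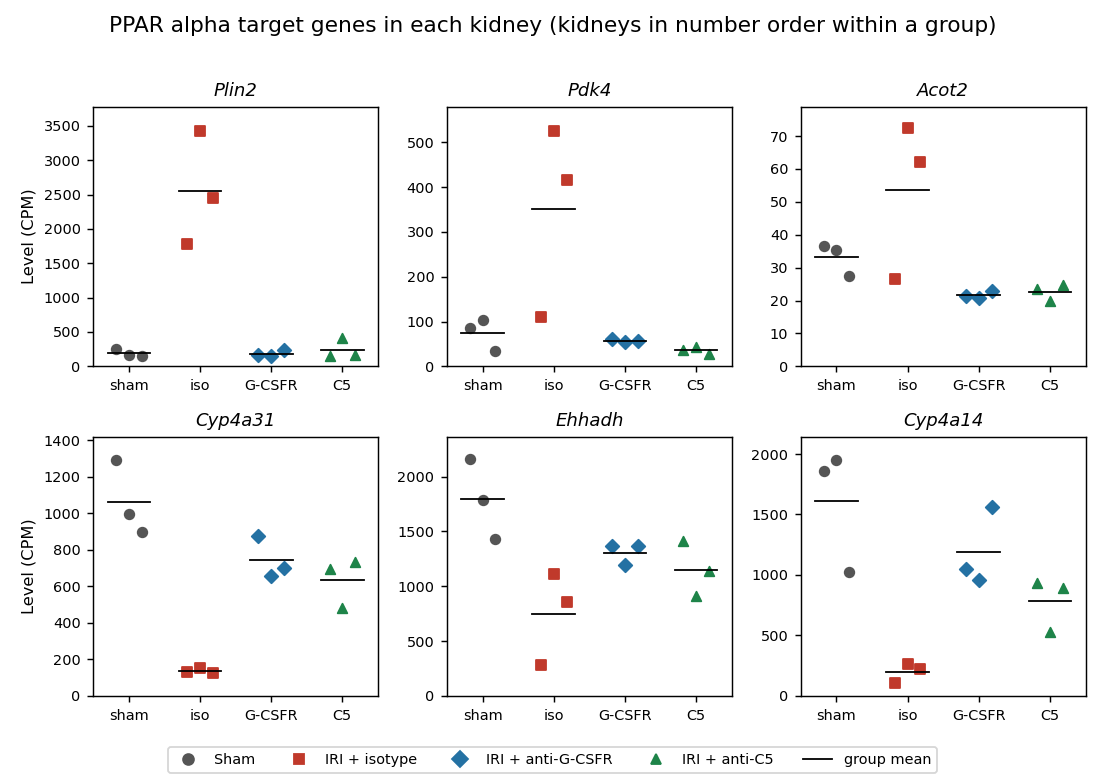
CPM of 6 genes known as targets of PPAR alpha in each kidney (points, in kidney order within a group) with the group mean (line), on axes that start at 0. Plin2, Pdk4 and Acot2 are highest in isotype kidneys 5 and 6, while Cyp4a31 is low in all 3 isotype kidneys and Ehhadh and Cyp4a14 are lowest in isotype kidney 4.

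A pair of these targets, singled out after their values were seen, separated kidney 4 from kidneys 5 and 6. Pdk4, the kinase that shuts off pyruvate dehydrogenase, had 85.9, 103 and 34.7 CPM in sham and 110.2, 526 and 415 CPM in isotype kidneys 4, 5 and 6. Acot2, a mitochondrial acyl-CoA thioesterase, had 36.7, 35.3 and 27.5 CPM in sham and 26.5, 72.4 and 62.0 CPM in isotype kidneys. Kidney 4 was the lowest isotype kidney for both, as for Ehhadh, Cpt1a and Acsl1, and it was the lowest of its group in 18 and the highest in 17 of the 38 genes.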

How the data were processed

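RNA of 12 kidneys was sequenced as single-end reads of 100 bases from strand-specific libraries, all in lane 8 of one flow cell, per the labels' protocols and sample names. Alignment was with TopHat2 2.1.0 and Bowtie2 2.2.5 to GRCm38.p4 and counting with featureCounts, per the submitters' processing notes. Its version, strand setting and annotation are not stated there. The authors deposited raw read counts per Entrez gene. Every gene has at least 2.01 CPM in its third-highest library, so low genes had been removed.

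Counts were tested with edgeR 4.0.16 (R 4.3.3): TMM factors, no further filter, a quasi-likelihood fit with the robust option on all 12 libraries (8 residual degrees of freedom, biological coefficient of variation 16.4%), two-sided, adjusted over 13124 genes. SE and 95% intervals are from that fit, and CPM values use TMM-scaled totals. Symbols were found for 13074 genes through RefSeq. Pairs of kidneys of 1 group gave chi-square values of 5.45 to 65.3 for each degree of freedom, so each kidney counted as 1 replicate. The fit was tested on simulated data.

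The members, lists, naming rule and alternatives were chosen with earlier results of these data known. The rule named, in each role class, the genes with the largest and smallest change in isotype against sham, those that rose or were not called, the regulators, and in each other list the gene with the smallest p in each direction; 1 gene so named is not reported here. Ehhadh, Acsl1, Hadha, Hadhb, Echs1, Etfa, Pdk4, Acot2, Cyp4a14 and genes given by a percent of the sham level alone were chosen after their values were seen. Alternatives were other scaling (upper-quartile, RLE, library totals alone), filterByExpr, a mean of at least 5 CPM, DESeq2 1.42.0, limma-voom (limma 3.58.1), 6 libraries alone, no robust option, each kidney left out, and kidneys 9 and 11 left out. Gene positions, exon lengths and shared 100-base windows are from GENCODE (GRCm38), counted from 1.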

Additional observations from a re-analysis of the deposited data

How the results depend on the processing

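Over the 22 alternatives no member reversed. In isotype against sham 33 to 36 genes were lower and 1 higher, and all 11 peroxisomal genes were lower under each. Over all genes 3095 to 4252 were lower and 3638 to 5586 higher, of 13124 (11190 with a mean of at least 5 CPM). With library totals alone, which shift the median of all genes to 0.23, -0.23 and -0.19 in the 3 comparisons with isotype, the median of the 38 genes was -1.11 in place of -1.31 in isotype against sham and 1.06 in place of 1.28 in anti-G-CSFR against isotype. Leaving out 1 kidney, these medians ran from -1.34 to -1.30 and from 1.23 to 1.36. Genes called lower with anti-G-CSFR or anti-C5 against isotype numbered 1 to 2 on leaving out 1 kidney, both over the 38 genes and over the 22 mitochondrial genes, the second being Cpt1a without kidney 4. Genes called higher ran from 30 to 33 and from 28 to 33. Over all genes the alternatives called 3107 to 4385 higher and 3583 to 5554 lower with anti-G-CSFR. With anti-C5 they called 3106 to 4302 higher and 3156 to 5111 lower.

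Of 836 values per comparison (38 genes under 22 alternatives), 9 lost their call in isotype against sham (Acsl1, Acadl and Hadha). In anti-G-CSFR against isotype 2 lost it (Cpt2 and Hsd17b4, with library totals alone) and 5 gained it (Ehhadh, Cpt1a and Acadl). In anti-C5 against isotype 20 lost it (Slc25a20, Cpt2, Hsd17b4 and Eci2) and 4 gained it (Cpt1a, Ehhadh and Acadl). The cause was not tested. In the 3 comparisons without the isotype group no alternative called a member. Over all genes, the 6 compared libraries alone called 41 genes higher and 2 lower in anti-G-CSFR against sham, where edgeR on 12 libraries called 0. No paired analysis was possible because kidney numbers do not repeat between groups. With 3 kidneys a group and whole-kidney RNA, small differences between the antibody groups could go undetected.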
